A study of Mus musculus with 2 samples.

Results

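Among the CD45+ cells of mouse visceral fat, a small set carried transcripts of the matrix protein fibronectin (Fn1) together with Lyz1 or Ear2 and little complement C1q. These Fn1 Lyz1 Ear2 cells were chosen by measured values: at least 3 UMIs of Fn1, at least 2 of Lyz1 plus Ear2, under 10 of C1qa, C1qb and C1qc together, none of Cd3e or Cd3d, at most 1 of Cd79a, none of Xcr1 or Clec9a, and under 10 of Col1a1, Col3a1 and Dcn together. A UMI (unique molecular identifier) tags 1 captured transcript. The rule found 56 of 25198 cells, 38 of 12474 in the library from mice on normal water (NW) and 18 of 12724 in the library from antibiotic-treated mice (ABX). The rule applied to cells with at least 500 UMIs, at least 200 genes and at most 25% mitochondrial UMIs.

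Both groups were wild-type C57BL/6 mice, 15 weeks old and kept specific pathogen-free. The ABX mice drank water with ampicillin, vancomycin, streptomycin and colistin to deplete the gut microbiota, and the NW mice drank plain water. CD45+ immune cells were enriched from visceral fat with magnetic beads and captured on the BD Rhapsody system, which counts gene transcripts and, through oligonucleotide-tagged antibodies (AbSeq), surface proteins in the same cell. Each condition had 1 library, and the number of mice behind it was not given in the sources used here. Differences between NW and ABX therefore compare 2 libraries, without a replicate check, and all intervals below are 95% intervals that cover counting error only.

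Over all cells that passed, the median depth was 5092 UMIs (NW) and 3845.5 UMIs (ABX). Of their cell numbers, 196 occurred in both libraries, and none of these belonged to a Fn1 Lyz1 Ear2 cell. Doublets were neither called nor removed.

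Fibronectin is a glycoprotein of the extracellular matrix that tissue macrophages and activated monocytes can secrete. Lysozymes cleave bacterial cell walls; the mouse has Lyz2, the form of macrophages, monocytes and neutrophils, and Lyz1, best known from intestinal Paneth cells. Ear2 belongs to the eosinophil-associated ribonucleases. In serous cavities and the fat that lines them, monocyte-derived macrophages with MHC class II, Ccr2 and Retnla are distinguished from resident large macrophages with Gata6, Prg4 and Alox15.

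The rule depends on telling Lyz1 from its neighbour Lyz2. Lyz1 lies at chr10:117287797-117292868 and Lyz2 at chr10:117277331-117282321, both on the minus strand of GRCm38. Their coding sequences are 447 bases each and differ at 22 of them, and the stretches after the stop codon are 95.6% identical. The last 120 coding bases, nearest to the 3′ end from which Rhapsody reads are primed, are shown 5′ to 3′ on the coding strand from the GENCODE M21 transcripts, with the bases that differ between the genes in capitals.
Lyz1: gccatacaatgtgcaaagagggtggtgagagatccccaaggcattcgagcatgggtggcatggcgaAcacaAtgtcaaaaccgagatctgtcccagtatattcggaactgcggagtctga
Lyz2: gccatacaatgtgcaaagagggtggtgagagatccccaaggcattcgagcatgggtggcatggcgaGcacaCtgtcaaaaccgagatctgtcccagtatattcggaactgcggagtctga
Only 2 bases of this window separate the genes, so a Lyz1 count is uncertain where a read could be assigned to either. The 786 bases of Lyz1 and 790 of Lyz2 after the stop codon lie nearer to the primed end. Where the reads fell was not examined.

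Ear2, at chr14:44102654-44103534 on the plus strand, also has close relatives. It differs from Ear10 at 14 of 471 coding bases, and its 177 bases after the stop codon are 98.9% identical to those of Ear1. The last 120 coding bases of Ear2 and Ear10 are shown in the same way, since the rule counts Ear2 alone.
Ear2: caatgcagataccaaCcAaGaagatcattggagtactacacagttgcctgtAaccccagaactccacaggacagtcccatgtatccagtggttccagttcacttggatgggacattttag
Ear10: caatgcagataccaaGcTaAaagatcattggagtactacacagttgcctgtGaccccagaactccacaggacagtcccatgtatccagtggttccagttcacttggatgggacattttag
In the members, 300 UMIs were assigned to Ear2, 258 in NW and 42 in ABX, against 2 to Ear1, 5 to Ear6 and 0 to Ear10 and Ear14.

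Lyz1 was not a fixed fraction of Lyz2. In the members, 25.4 Lyz1 UMIs were counted per 100 of Lyz2 in NW and 7.97 in ABX. In C1q-high macrophages, which hold at least 10 C1q and under 3 Fn1 UMIs, the ratio was 0.566 in NW and 0.607 in ABX, and in T cells it was 1.77 and 1.62. Lyz1 exceeded Lyz2 in 11 of 38 NW and 4 of 18 ABX members, and it was at 0 in 9 and 3 of them, which entered through Ear2. The rule favours cells with Lyz1, so the ratio among members is a description. Lyz1 and Ear2 occurred together in 18 NW and 10 ABX members.

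Few cells passed each step. In NW, 239 cells had at least 3 Fn1 UMIs, 119 of these also had at least 2 of Lyz1 plus Ear2, and the C1q limit left 46. In ABX the same steps left 149, 38 and 23 cells. The remaining limits removed 8 cells in NW and 5 in ABX.

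Free RNA can add UMIs of a gene to any cell, so the Fn1 and Lyz1 plus Ear2 limits were also applied to T cells. Among cells within the C1q and exclusion limits, 1.48% passed in NW (38 of 2560, 1.05 to 2.03%) and 0.530% in ABX (18 of 3395, 0.315 to 0.837%). Among T cells under the same C1q limit, 0.273% passed in NW (4 of 1467, 0.0743 to 0.697%) and 0.128% in ABX (2 of 1560, 0.0155 to 0.462%). The T cells were somewhat deeper, with medians of 3653 and 3395 UMIs against 3036.5 and 2537. The share was higher than in T cells in both libraries, and the intervals overlapped in ABX.

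Several members sat just inside a limit. Fn1 was at exactly 3 UMIs in 9 NW and 4 ABX members, and 11 and 6 cells missed the rule with exactly 2. Lyz1 plus Ear2 was at exactly 2 UMIs in 10 and 3 members, and 11 and 4 cells missed it with exactly 1. A C1q sum of 8 or 9 occurred in 3 members of each library, and 4 NW and 2 ABX cells missed the rule with 10 to 12.

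The members fell into shallow and deep cells. In NW they held 663 to 22402 UMIs with a median of 2143.5, and in ABX 920 to 12375 with a median of 2696.5, against 5099.5 and 3846 in all other cells. Mitochondrial UMIs made up a median of 13.8% in NW and 14.1% in ABX members, against 6.00% and 7.05% in the others. These traits were not particular to the members. Cells with at least 2 Csf1r, under 2 Cd209a, under 3 Fn1 and under 10 C1q UMIs had medians of 1835 and 1652 UMIs. Their median mitochondrial shares were 15.6% and 16.8%. A limit of 4000 UMIs, chosen after the values were seen, put 36 members in the shallow class, 25 from NW and 11 from ABX, and 20 in the deep class, 13 and 7. In shallow members the median mitochondrial share was 17.2% in NW and 19.0% in ABX, and in other cells under 4000 UMIs it was 8.43% and 9.35%. In deep members it was 5.87% and 5.60%, close to the 5.48% and 5.90% of other deep cells.

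**Figure D1:**
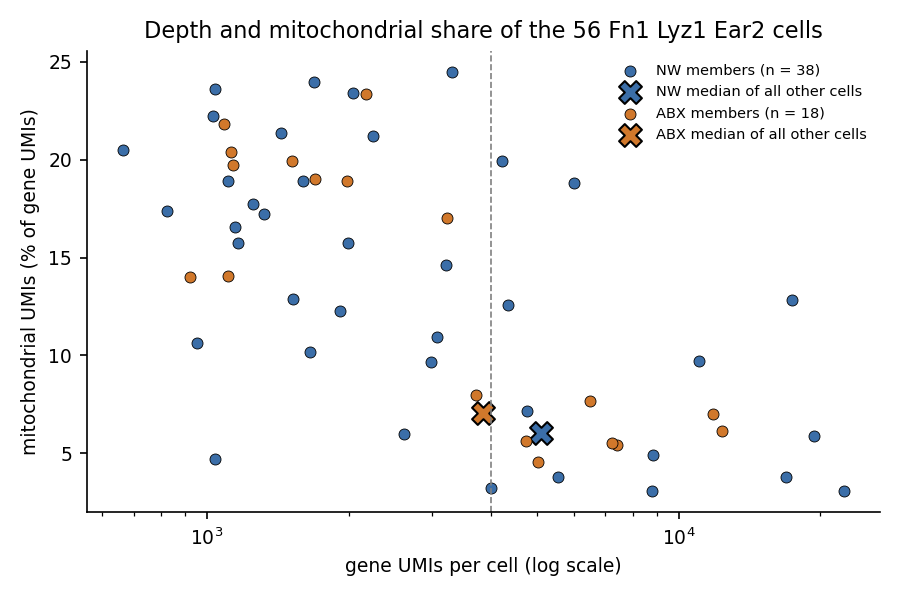
Gene UMIs per cell on a log scale against the percentage of mitochondrial UMIs for the 38 NW and 18 ABX members, with crosses at the medians of all other cells. Most members left of the dashed line at 4000 UMIs lie above 10% mitochondrial UMIs (22 of 25 in NW, 10 of 11 in ABX), and most on the right lie below it (4 of 13 and 0 of 7 above).

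Most shallow members of both libraries were rich in Retnla and MHC class II when set against all other cells of that depth, lymphocytes included. Retnla, an alternative-activation and small peritoneal macrophage gene, was detected in 25 of 25 shallow NW members and 10 of 11 shallow ABX members, at 15940 and 23016 CPM (UMIs of the gene over all UMIs of these cells, scaled to 1000000). Other cells of that depth had 2839 and 1851, and T cells of that depth 482 and 247. H2-Ab1, a chain of MHC class II, had a UMI in all shallow members, at 14914 and 9603 CPM against 5976 and 5655 in the other shallow cells. The nuclear noncoding RNA Malat1 stood at 32441 and 33889 CPM against 5957 and 4983, and it had 9 to 95 UMIs in each shallow NW cell and 10 to 100 in each shallow ABX cell. At all depths together Malat1 was at 9376 and 9933 CPM in members. The Csf1r cells described above had 8255 and 9547. Lyz1 was found in 21 of 25 and 11 of 11 shallow members. High Malat1 and high mitochondrial shares thus occurred in the same cells as the Retnla and MHC class II transcripts, and their part in the result was not tested.

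Deep members differed from one another, and they are described below by their own counts, numbered by depth within each library. NW cell 1, the deepest with 22402 UMIs, held 325 of Fn1, 181 of Lyz1, 61 of Ear2, 347 of the lipid-hydrolysing enzyme Lpl and 177 of the elastase Mmp12. It also had the highest member count for 8 of the 10 antibodies, the T and NK cell antibodies TCR-beta (360) and NK-1.1 (272) included. NW cell 2 (19384 UMIs) had no Lyz1, 19 of Ear2, 159 of Lpl, 20 of Mmp12 and 38 of the integrin Itgax. NW cell 3 (17425 UMIs) had 2 of Lyz1, none of Ear2, 385 of Lyz2, 54 of Mmp12 and 43 of the chitinase-like Chil3. These 3 cells and the shallower NW cell 18, with 15, were the only members with at least 10 Mmp12 UMIs. None of 18 ABX members reached that limit, which allows a share of up to 16.7%, taking 3 cells as the most that a count of 0 allows. Among all other cells, 35 of 12436 in NW and 1 of 12706 in ABX held at least 10 Mmp12 UMIs.

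Other deep cells are listed by their Retnla or MHC class II counts, but these genes did not part them from the cells above. NW cell 1 held 127 of Retnla and NW cell 2 held 138 of H2-Ab1. All 4 members with at least 10 Mmp12 UMIs reached 3 Retnla UMIs. NW cell 6 (8830 UMIs) held 689 of Retnla and 181 of Lyz1. NW cell 5 held 288 of Retnla and 193 of H2-Ab1, NW cell 4 had 186 and 212 with 74 of the chemokine receptor Ccr2, and ABX cell 2 (11815 UMIs) had 311 and 78 with 34 of Ccr2. NW cells 4, 5 and 6 and ABX cell 2 had no Mmp12 or Chil3 UMI. NW cell 7 held 173 of H2-Ab1 and 389 of Lyz2 with 3 of Retnla. NW cell 11 (4345 UMIs) had 181 of H2-Ab1 and 37 of Retnla, and NW cell 12 had 14 and 24 with 19.9% mitochondrial UMIs and 7 UMIs of the proliferation gene Mki67.

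In 3 ABX cells at least 3 UMIs of Gpnmb, a glycoprotein of lipid-associated macrophages, were counted. ABX cell 1 had 36 UMIs of Gpnmb, 40 of Lpl and 86 of the lipid carrier Apoe, with 3 of Fn1, the least that the rule allows. ABX cell 3 had 50 of Gpnmb, 44 of Lpl and 24 of the fatty acid binding protein Fabp5. ABX cell 5 had 20 of Gpnmb, 35 of Fabp5 and 34 of Chil3. In NW only cell 13 reached 3 Gpnmb UMIs, beside 60 of Chil3 and 55 of Apoe, and among all other cells 0.788% in NW and 0.661% in ABX did so.

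The members with the most Ly6c2, which marks classical monocytes, were NW cell 9 and ABX cell 4. NW cell 9 (5565 UMIs) had 4 of Ly6c2, 21 of Ccr2, 4 of Chil3 and 47 of Lyz1, and ABX cell 4 (7230 UMIs) had 7 of Ly6c2, 12 of Ccr2, 87 of Chil3 and 10 of Cx3cr1. Chil3 reached 3 UMIs in 5 of 38 NW and 4 of 18 ABX members, with 62 in ABX cell 7 and 11 in NW cell 10, against 0.33% and 0.15% of all other cells; this limit was chosen after the values were seen.

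A further pair held genes of large peritoneal macrophages. ABX cell 6 (5037 UMIs) had 104 of Prg4 and 32 of Alox15, and the shallow ABX cell 8 had 27 and 31. ABX cell 6 also had the lowest CD44 antibody count of all members, 7. No NW member held 10 Prg4 UMIs, which by the same limit of 3 cells allows a share of up to 7.89%. Among all other cells, 0.145% in NW and 0.118% in ABX held at least 10. NW cell 8 (6011 UMIs, 18.8% mitochondrial) held 21 UMIs of the 4 NK cell genes with 3 of Fn1, and no other member had an NK gene UMI.

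**Figure D2:**
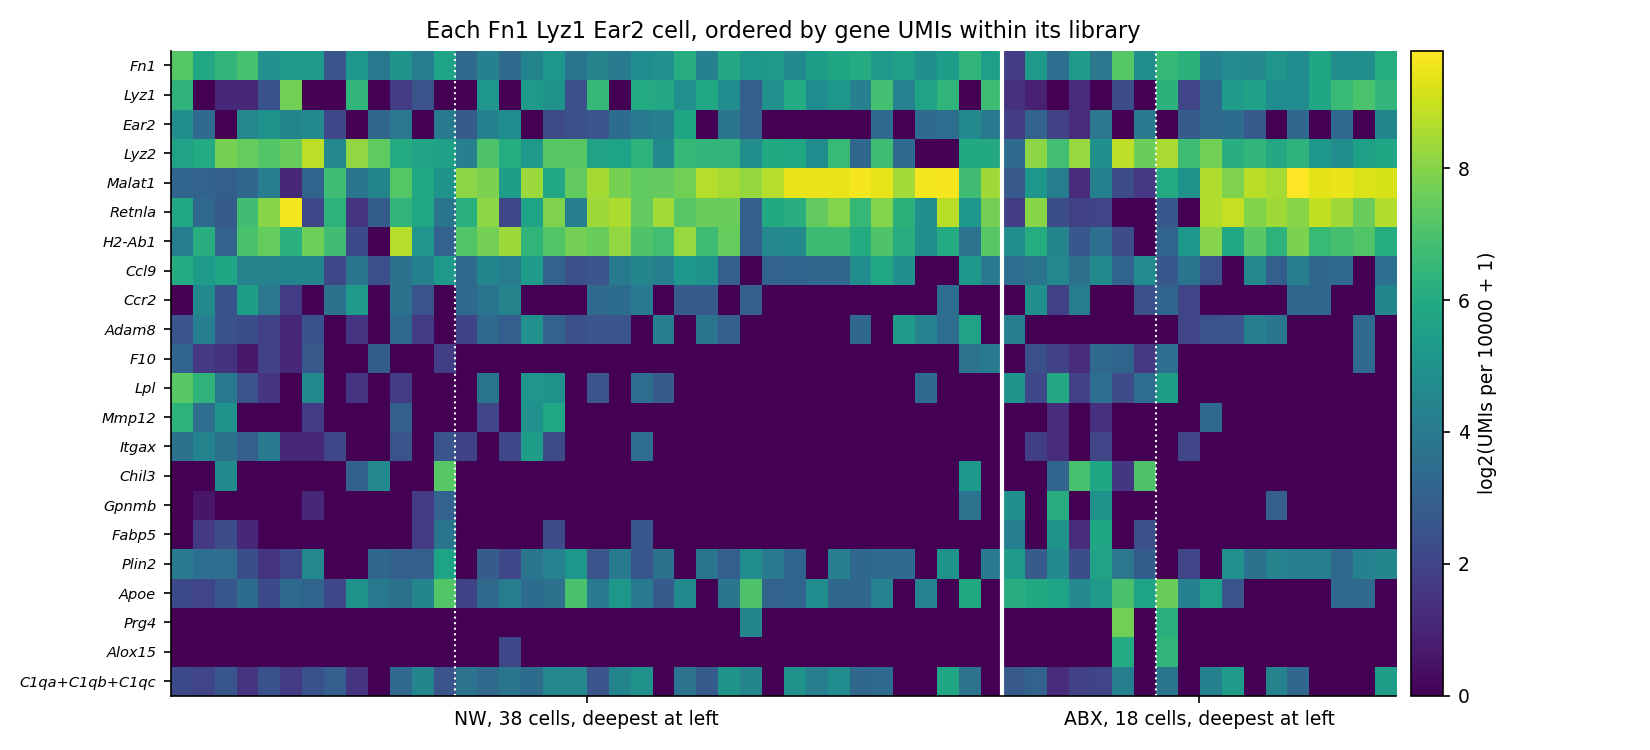
Each column is 1 member, ordered by UMIs within its library, and each row a gene, coloured by log2 of UMIs per 10000 plus 1; the solid line parts NW from ABX and the dotted lines mark 4000 UMIs. Malat1, Retnla and H2-Ab1 are bright in the shallow cells of both libraries, while Mmp12 is bright in few NW cells and Gpnmb and Prg4 in few ABX cells.

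The working label of these cells, monocyte-like, was checked against 10 classical monocyte genes. Ly6c2 was detected in 3 of the 38 NW members and 2 of the 18 ABX members, or 7.89% and 11.1%, against 11.9% and 16.4% of all other cells and 31.9% and 43.8% of T cells, which share this gene. Plac8 was found in 3 members of each library, or 7.89% in NW and 16.7% in ABX, against 10.9% and 12.4% of all other cells. Vcan was found in 4 and 2 members. Ccr2 was found in 19 of 38 and 9 of 18 members, and in 46.6% and 40.3% of all other cells. Thinned to 1000 UMIs, Ccr2 would be seen in 36.5% of NW and 30.01% of ABX members and in 27.0% and 24.1% of the others, leaving out 3 and 1 shallower members. Chil3, also on this list, was detected in 13.2% and 27.8% of members against 1.19% and 0.433% of the others. F10 (coagulation factor X), another gene of the list, was detected in 28.9% and 44.4% of members against 1.06% and 0.275% of the others. The 10 genes together stood at 2259 CPM in NW and 4292 CPM in ABX members, against 818 and 928 in all other cells and 1966 and 1771 in Cd209a dendritic cells, and most of their member UMIs were of Ccr2 and Chil3. Ly6c2 was not detected in 51 of 56 members, most of them shallow, which does not show its absence at this depth. The cells are called here by the genes of the rule.

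Markers of several other cell types that the fat could hold had few transcripts, while some macrophage lists had many. The 5 mesothelial and the 4 mast cell genes were at 0 in all members. Eosinophil genes had 8 UMIs in NW and 1 in ABX, neutrophil genes 4 and 5, endothelial genes 13 and 8, and adipocyte genes 7 and 2. Plasma cell genes had 8 and 10. T cell genes had 1 and 0, B cell genes 0 and 2, and fibroblast genes 4 and 1, but these lists hold genes that the rule itself limits. The 7 small peritoneal macrophage genes, Retnla and H2-Ab1 among them, had 4254 UMIs in NW and 1185 in ABX and were detected in every member. They were not particular to the members, at 24086 and 15843 CPM against 16589 and 13559 in C1q-high macrophages. Cd209a dendritic cells had 19295 and 19511 CPM. Cells that fulfil the rule except for at least 10 C1q UMIs had 23531 and 15613. Retnla alone was detected in 78.3% and 53.8% of T cells. The 9 lipid-associated macrophage genes were detected in 27 NW and 13 ABX members, at 3171 and 4265 CPM. All other cells had 924 and 1032, and C1q-high macrophages 1012 and 980. Cells that fulfil the rule except for the C1q limit had 3739 and 1565. Mmp12 held 281 of the 560 NW member UMIs of this list, and Gpnmb 107 of the 319 in ABX. The 11 large peritoneal macrophage genes had 14 UMIs in 8 NW members and 237 in 3 ABX members, and the 8 non-classical monocyte genes had 82 and 43. Genes of dividing cells, Mki67 plus Top2a, reached 2 UMIs in 3 NW and 1 ABX members, or 7.89% and 5.56%, against 4.91% and 3.90% of the others.

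Among the genes that led the members over all other cells, after the 3 of the rule, were F10 (coagulation factor X), Lpl and the metalloprotease Adam8. Because the same cells chose the members and gave these values, the folds are a description. F10 stood at 232 CPM in NW and 321 CPM in ABX members, 17.7-fold and 30.3-fold over all other cells with 10 CPM added to both. It was found in 11 of 38 and 8 of 18 members, against 1.06% and 0.275% of the others. Lpl was 13.7-fold and 8.75-fold higher and Adam8 7.05-fold and 6.53-fold. Lower in this order stood the urokinase receptor Plaur (8.75-fold and 4.50-fold), the dipeptidase Dpep2 (5.81-fold and 8.31-fold), the actin-capping Capg (5.57-fold and 4.12-fold) and the matrix metalloprotease Mmp19 (4.07-fold and 4.50-fold).

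F10 was shared with the Fn1-positive cells above the C1q limit. These cells, named Fn1 C1q-high here, fulfil the rule except that they hold at least 10 C1q UMIs; they numbered 55 in NW and 10 in ABX and were deep, with a median of 10458 UMIs in NW. F10 was at 105 and 138 CPM in them, but at 1.15 and 0.588 in C1q-high macrophages without Fn1. Lpl was at 2319 CPM in the NW and 395 in the ABX Fn1 C1q-high cells, against 3346 and 1604 in members. NW cell 1 held 347 of the 591 NW Lpl UMIs, and without it the NW members stood at 1582 CPM, below the Fn1 C1q-high cells. Lpl was detected in 39.5% of NW members, 43.9% of NW C1q-high macrophages and 81.8% of NW Fn1 C1q-high cells. Dpep2 was at 362 and 441 CPM in members and at 343 and 464 in the Fn1 C1q-high cells.

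F10 was lower in the other kinds of cells with under 10 C1q UMIs. Cd209a dendritic cells, with at least 2 Cd209a UMIs, had 1.34 CPM of F10 in NW and no F10 UMI in ABX. Cells with at least 2 Csf1r, under 2 Cd209a and under 3 Fn1 UMIs had 21.2 and 4.95 CPM. H2-Ab1 followed another order, highest in the dendritic cells at 16338 and 17284 CPM and at 9829 and 4385 in members. C1q itself had a median of 9.11 per 10000 UMIs in NW and 4.37 in ABX members, against 119 and 105 in C1q-high macrophages and 4.72 and 2.91 in T cells.

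**Figure D3:**
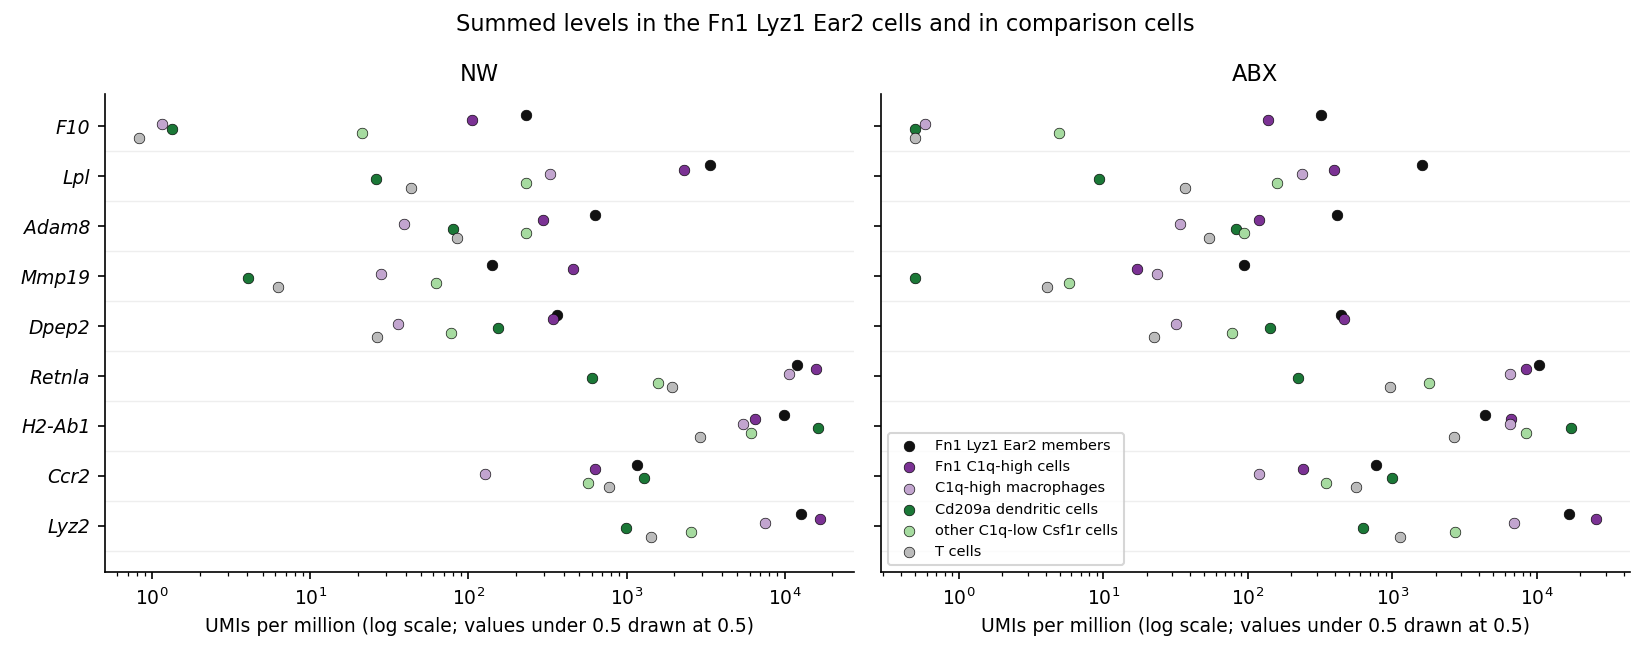
Summed UMIs in CPM on a log scale for 9 genes in NW (left) and ABX (right); each point is 1 kind of cell. F10, Lpl and Adam8 are highest in the members in both libraries, Lpl in NW through 1 cell (1582 CPM without it) and Adam8 in ABX with 71.0% of its UMIs in 1 cell, while H2-Ab1 is highest in the Cd209a dendritic cells.

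The antibody counts were not used by the rule. CD44, an adhesion receptor for hyaluronan, had a median of 216.5 UMIs per cell in NW members (33 to 1926) and 157.5 in ABX members (7 to 436). C1q-high macrophages had medians of 58 and 54, below those of the members in both libraries although their gene UMIs were higher. T cells had 183 and 141, Cd209a dendritic cells 178.5 and 175, and Fn1 C1q-high cells 322 and 127. The members with at least 4000 gene UMIs had medians of 217 and 192 and those under 4000 had 216 and 145, against 115 and 108 and then 83 and 72 in other cells of the same depth. The quartiles of members and C1q-high macrophages did not overlap, at 122 to 419 and 34 to 102 in NW and at 129 to 256 and 34 to 87 in ABX.

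CD69, an early activation antigen of lymphocytes, had medians of 7 and 10.5 in the members, NK-1.1 had 22.5 and 28.5, and TCR-beta 15 in both, against 30 and 23 for TCR-beta in T cells. CD1d, a lipid-presenting molecule, was lower in the members, at 8 and 5 against 13 and 12 in C1q-high macrophages, and its quartiles overlapped in NW but not in ABX. The quartiles of the other 8 antibodies overlapped between members and C1q-high macrophages in both libraries.

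**Figure D4:**
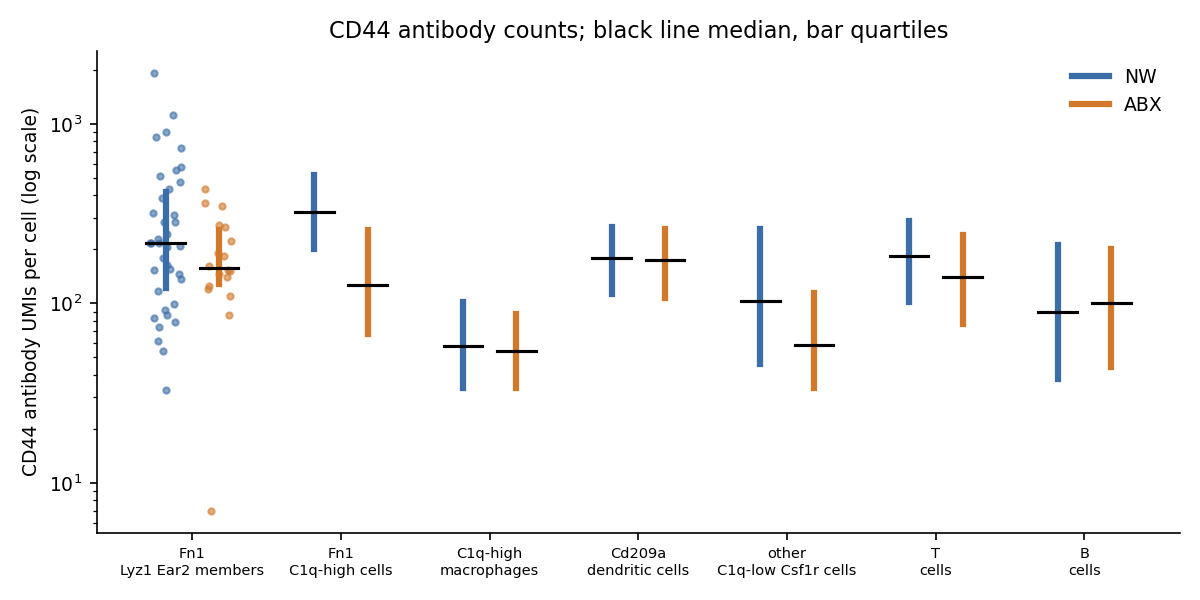
CD44 antibody UMIs per cell on a log scale in NW (blue) and ABX (orange), with black lines at medians and bars over the quartiles; points show the single members. Members have medians of 216.5 and 157.5, and the C1q-high macrophages 58 and 54.

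To ask how antibiotics bear on the number of these cells, their share was compared between libraries. The members made up 0.305% of NW cells (0.216 to 0.418%) and 0.141% of ABX cells (0.0839 to 0.223%), a log2 ratio of -1.11 (-1.91 to -0.30). Fn1 C1q-high cells made up 0.441% and 0.0786%, a log2 ratio of -2.49 (-3.46 to -1.52), and C1q-high macrophages 40.9% and 33.4%, a log2 ratio of -0.29. T cells had 13.2% and 13.7%. Higher in ABX were B cells, at 4.83% and 10.6% (log2 ratio 1.13), and the other C1q-low Csf1r cells, at 3.08% and 4.33% (log2 ratio 0.49), and a higher share of one kind lowers the shares of the rest. With cells of at most 10% mitochondrial UMIs alone, 12 NW and 8 ABX members remained and the log2 ratio was -0.46 (-1.75 to 0.83). The libraries differed in depth, and with every cell thinned to 2000 UMIs the rule found 28 and 6 members, a log2 ratio of -2.15. Only the 20 deepest NW and the 10 deepest ABX members held 2000 UMIs. Some of the 28 NW cells were therefore not members before thinning. Thinning can bring cells under the upper limits of the rule, that on C1q among them. This setting thus does not correct the share of the same cells for depth. The share was lower in ABX in all of these settings, and antibiotic treatment and differences between mice or libraries cannot be told apart.

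**Figure D5:**
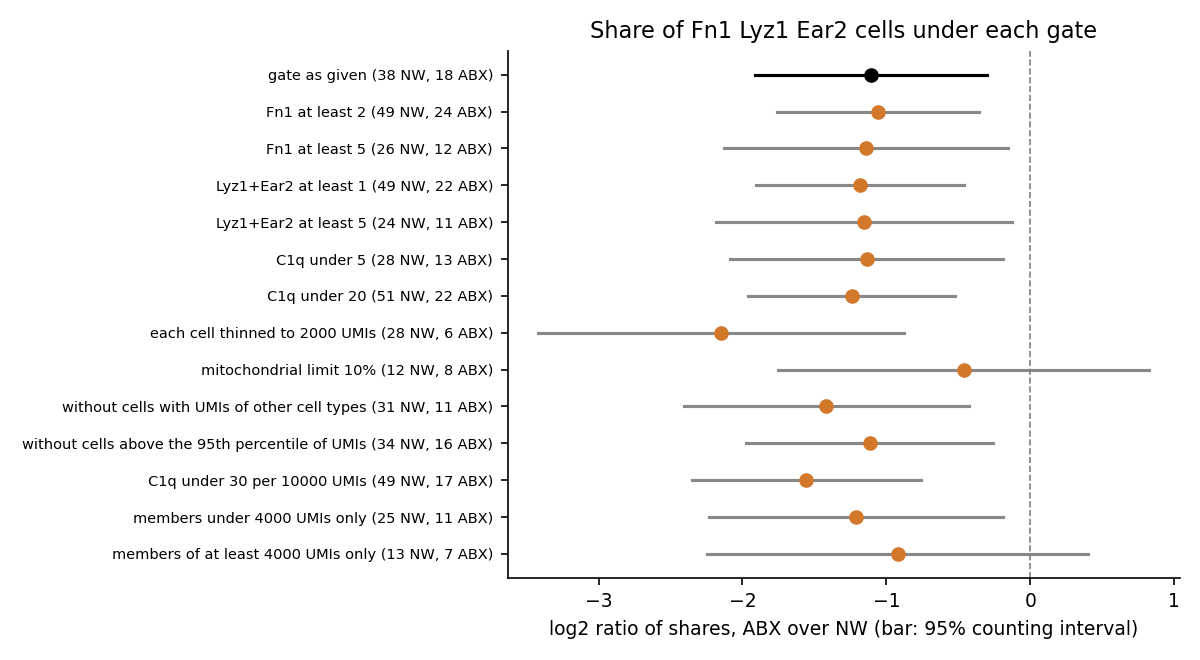
Log2 ratio of the share of members, ABX over NW, under each form of the rule, with 95% counting intervals and the number of members in brackets. All points lie below 0, and the intervals of the mitochondrial limit of 10% and of the members with at least 4000 UMIs reach above 0.

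The summed transcripts of members were then compared between libraries. They came to 176615 UMIs in NW and 74798 in ABX, of which the 5 deepest cells held 49.4% and 60.6%. Of 345 genes with at least 100 UMIs, 42 were at least 1.5-fold higher in ABX (12.2%) and 54 at least 1.5-fold lower (15.7%), 27.8% in either direction. The median log2 ratio of these genes was 0.06. With 1 library each, no test was made.

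Several of the genes with the highest ratios were those of single cells described above. Prg4 had 131 UMIs in 2 of 18 ABX cells and 3 in 1 of 38 NW cells, a log2 ratio of 6.69 (5.11 to 8.98). Above the C1q limit Prg4 was present in both libraries. The Fn1 C1q-high cells held 1126 Prg4 UMIs in 7 of 55 NW cells and 729 in 5 of 10 ABX cells. Gpnmb had 107 UMIs in 4 ABX cells and 7 in 5 NW cells, a log2 ratio of 5.17 (4.08 to 6.52). Fabp5 (3.24), the lysosomal protease Lgmn (2.22), Apoe (1.95), Chil3 (1.89), the protease cathepsin B, Ctsb (1.49), the lectin Lgals3 (1.25), the pore-forming Mpeg1 (1.24) and the adaptor Fyb (1.12) followed. A single cell held 45.8% of the Chil3 and 47.9% of the Lgals3 UMIs in ABX. Among shallow members the log2 ratio was -0.91 for Ctsb (-1.90 to -0.01), opposite to the pooled direction, and -1.69 for Lgmn, with an interval that included 0 (-7.18 to 1.28). For Apoe it was 1.00 (0.57 to 1.43), but 71 of the 90 shallow ABX UMIs lay in ABX cell 8, and without that cell it was -0.94 (-1.73 to -0.22). Gpnmb also depended on the C1q limit: with members under 20 C1q UMIs its log2 ratio was -0.23. Apoe was detected in 34 of 38 NW members and in 13 of the 18 from ABX.

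Among the genes lower in ABX, Mmp12 had 281 UMIs in 8 NW cells and 4 in 3 ABX cells, a log2 ratio of -4.89 (-6.78 to -3.52), and 63.0% of the NW UMIs came from 1 cell. This was not particular to the members. Among other cells under 4000 UMIs Mmp12 stood at 25.3 CPM in NW and 0.919 in ABX. In other cells of at least 4000 UMIs it stood at 58.2 and 2.01. Itgax, the CD11c integrin, had 139 UMIs in 15 NW cells and 7 in 4 ABX cells, a log2 ratio of -3.07. The transcription regulator Id2 (-1.70), metallothionein Mt1 (-1.68), tubulin Tubb5 (-1.61), the focal adhesion protein Zyx (-1.51), the AP-1 subunit Jun (-1.47), the actin-binding Tagln2 (-1.42) and the surface glycoprotein Cd52 (-1.42) followed. Jun was detected in 29 of 38 NW and 7 of 18 ABX members, with at most 12.5% of the NW and 45.5% of the ABX UMIs in 1 cell. In shallow members it had 61 UMIs in 18 of 25 NW cells and 1 in 1 of 11 ABX cells. In the shallow members Zyx had a log2 ratio of 0.31 (-1.15 to 1.67) and Cd52 of 0.45 (-0.51 to 1.38), with intervals that included 0.

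The genes of the rule also differed, which is a description. Fn1 had a log2 ratio of -0.73 over all members, but 0.76 (0.37 to 1.15) among the shallow and -1.14 (-1.38 to -0.91) among the deep. Lyz1 had -1.26 over all, 0.49 among the shallow and -4.85 among the deep, where the 7 ABX cells held 6 Lyz1 UMIs together and the 13 NW cells 421. Ear2 had -1.38 over all, -0.91 among the shallow and -1.50 among the deep. The NW and ABX values of Fn1 per cell overlapped, with medians of 34.6 and 27.5 per 10000 UMIs. Of the other marker genes of these cells, Lpl had a log2 ratio of -1.06 and Mmp19 of -0.60, and without NW cell 1, which held 58.7% of the NW Lpl UMIs, the log2 ratio of Lpl was 0.02 (-0.31 to 0.34).

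Gene lists were read against these backgrounds of 12.2% higher and 15.7% lower. MHC class II presentation had 5 of 12 genes with at least 100 UMIs, and 4 of them were at least 1.5-fold lower in ABX: H2-Ab1 (-1.16), H2-Eb1 (-1.13), Cd74 (-0.94) and H2-Aa (-0.78); Ctss stood at -0.10. In the deep members the log2 ratio of H2-Eb1 was -2.10 and of H2-Ab1 -1.70, and in the shallow members -0.01 and -0.64. H2-Aa had -1.38 among the deep and 0.25 (-0.05 to 0.54) among the shallow, and Cd74 had -1.54 and -0.18 (-0.38 to 0.02). Per cell, the 3 classical MHC class II genes made up a median of 2.19% of UMIs in NW (0.0539 to 6.80%) and 1.52% in ABX (0.0794 to 4.88%), and the ranges overlapped. The NW and ABX medians were 1.62% and 2.13% in C1q-high macrophages and 1.89% and 2.66% in the other C1q-low Csf1r cells. In ABX both lay above the members. The share was at least 0.5% in 30 of 38 NW members and in 12 of 18 ABX members, or 78.9% and 66.7%, against 61.4% and 58.9% of all other cells.

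Immediate-early and heat shock genes that respond to tissue dissociation had 8 of 15 genes tested, of which 0 were higher and 5 lower in ABX, with a median log2 ratio of -0.91. They were Jun, the AP-1 subunit Jund (-1.26), the chaperones Hspa1a (-1.05) and Hspa1b (-0.88), and the mRNA-decay factor Zfp36 (-0.94); Fos stood at -0.35. The part of tissue handling in these values was not tested. The chemokines Ccl9 (-1.10) and Ccl6 (-0.82) were the 2 inflammatory genes tested of 24, and both were lower in ABX.

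Lysosome and phagocytosis genes had 13 of 20 genes tested, 6 higher and 0 lower in ABX, with a median log2 ratio of 0.55. The 6 were Gpnmb, Lgmn, Ctsb, Lgals3, the protease cathepsin D, Ctsd (0.88), and the endosomal glycoprotein Cd68 (0.84). The 3 ABX cells with at least 3 Gpnmb UMIs held 106 of the 107 ABX UMIs of Gpnmb and 63 of 73 of Lgmn. The same 3 cells held 299 of 368 of Ctsb and 348 of 411 of Lgals3. These 4 ratios thus rest mainly on 3 of 18 ABX members. In the shallow members Ctsd had -0.06 and Lgals3 -0.03. Lipid uptake and storage had 7 of 25 genes tested, with Fabp5, Apoe and the lipid droplet protein Plin2 (0.89) higher and Lpl lower, and the fatty acid transporter Cd36 at 0.08. The same 3 ABX cells held 81 of the 84 ABX UMIs of Fabp5 and 147 of 413 of Apoe.

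Other lists held few genes with enough UMIs. The granulocyte-macrophage growth factor receptor subunit Csf2ra (-0.76) and the transcription factor Cebpb (-0.64) were lower and Csf1r stood at -0.43, 3 of 22 genes of colony stimulating factor and PPAR signalling. Of the matrix and coagulation list, 4 of 25 genes were tested: Fn1, Mmp12 and Adam8 (-0.61) were lower, and the integrin chain Itgb1 stood at -0.09. The metabolic genes Gapdh (-0.57), Aldoa (-0.47) and Pkm (-0.31) did not reach 1.5-fold. Retnla stood at 12009 CPM in NW and 10348 CPM in ABX members, a log2 ratio of -0.21, while in all other cells it had 5957 and 2899. It reached 3 UMIs in 35 of 38 NW and 12 of 18 ABX members, against 55.3% and 26.1% of all other cells and 32.2% and 13.8% of T cells. T cells are not known to make Retnla, and T cells under 10 C1q UMIs, a limit set because doublets were not removed, reached this limit in 25.4% and 8.85%. Interferon response, microbial sensing and cell cycle genes had 0 genes with 100 UMIs, and a difference in them was not detectable at this depth.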

How the data were processed

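Gene and antibody UMI counts per cell barcode were used as deposited by the authors, 1 table per library. Per the labels the reads were mapped to mm10, and per the methods they were processed with the BD Rhapsody whole transcriptome pipeline 1.8; the submitters' notes also name R 3.6.0 and Seurat 3.0.1. The files held 17662 (NW) and 17785 (ABX) barcodes and 10 antibodies, of which the study lists 8. Counts were read with Python 3.11.15, numpy 2.4.6 and scipy 1.17.1. UMIs were summed over member cells per library and scaled to 1000000 (CPM); ratios have exact conditional Poisson intervals, shares exact (Clopper-Pearson) intervals, shares of 0 a limit of 3 counts, and ratios of shares log-normal intervals. With 1 library per condition no test was run. The ratio step was tested on simulated data. Alignments used Biopython 1.88. Genes named are those of the rule, the 10 highest and 10 lowest ratios (at least 100 UMIs, a UMI in 10% of members of 1 library), the 20 leading genes (pseudocount 10 CPM) and, in each list, the most abundant and extreme genes; genes shown for single cells beyond these, Alox15 among them, were chosen after their values were seen. The members and lists were chosen with earlier results of these data known. Results for 2 further genes are not reported here.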

Additional observations from a re-analysis of the deposited data

How the results depend on the processing

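No paired analysis was possible because each condition had 1 library and the labels carry no replicate numbers. The log2 ratio of the share stayed negative in all 13 alternatives and within the interval of the reported value in 12. With cells thinned to 2000 UMIs, which changed in part which cells counted as members, this log2 ratio was -2.15. The intervals included 0 with the mitochondrial limit of 10% and with members of at least 4000 UMIs. The number of genes at least 1.5-fold higher in ABX (42 reported) was 20 with C1q under 5, 11 after thinning, 27 at the mitochondrial limit of 10%, 24 without cells holding UMIs of other cell types, 5 among members under 4000 UMIs and 26 without the 5 deepest members of each library. It was 112, 6 and 3054 with a minimum of 50, 500 and 1 UMIs. The number lower (54 reported) was 24 with C1q under 5, 126 under 20, 136 under 30 per 10000 UMIs, 11 after thinning, 31 without other-type UMIs, 27 without cells above the 95th percentile of depth, 5 under 4000 UMIs and 25 without the deepest. It was 136, 11 and 4318 with the same 3 minimums. Averaging cells equally gave 69 higher and 47 lower. The minimums and smaller member sets also change how many genes are counted.

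F10 over C1q-high macrophages in NW was 6.93 on the log2 scale with C1q under 5, 8.64 after thinning, 5.34 under 4000 UMIs and 6.86 without the deepest members. The share with at least 3 Retnla UMIs was 60.7% in NW after thinning and 37.5% in ABX at the mitochondrial limit. Of 391 alternative values of named genes, 215 stayed within the reported interval, 140 moved and 36 reversed; of 192 list medians, 23 changed sign, 3 of them for lists whose reported median was at least 1.5-fold from equal. Among members under 4000 UMIs the log2 ratios reversed for Lgmn (-1.69), Ctsb (-0.91), Lgals3 (-0.027), Fyb (-0.57), Zyx (0.31), Cd52 (0.45), Fn1 (0.76), Lyz1 (0.49) and Lpl (0.37), and the median of the lysozyme and Ear genes was 0.49. Without the 5 deepest members they reversed for Gpnmb (-0.98), Fabp5 (-0.40), Lgmn (-1.86), Ctsb (-0.51), Lgals3 (-0.10), Mpeg1 (-0.31), Zyx (0.016), Fn1 (1.09) and Lpl (0.48). Without the 5 cells richest in each gene they reversed for Lgmn (-0.27), Ctsb (-0.047), Lgals3 (-0.18) and Fyb (-0.028). Without cells holding UMIs of other cell types they reversed for Fyb (-0.16), Fn1 (0.44), Lyz1 (0.52), Lpl (0.41) and the lysozyme and Ear median (0.25). Without cells above the 95th percentile of depth Fn1 was 0.62 and Lpl 1.54. After thinning Prg4 was -1.47, Lpl 0.86 and the median of colony stimulating factor and PPAR signalling 0.037. With C1q under 5 Lpl was 1.49 and Mmp19 1.00, and with C1q under 20 and under 30 per 10000 UMIs Gpnmb was -0.23 and -0.19. Mmp19 was 0.76 in members of at least 4000 UMIs, and Fn1 0.029 when cells were averaged equally. Without ABX cell 8 the Apoe ratio among members under 4000 UMIs was -0.94, and without NW cell 1 the Lpl ratio was 0.020. The cause of these shifts was not tested. In 17 cases a gene had no UMI left in a library, and no value was given. The limits at 4000 UMIs, per 10000 UMIs, on the deepest members and on these 2 single cells were chosen after seeing the data.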
